A study of Rattus norvegicus with 6 samples.

Results

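The major histocompatibility complex (MHC) of the rat, called RT1, and the genes that prepare antigens for it were examined in neonatal cardiomyocytes transfected with an siRNA against the kinase DYRK1A. The set comprised 53 of the 43035 rows of the count table, namely the 43 rows whose gene name starts with RT1- and 10 further genes chosen by name (B2m, Tap1, Tap2, Tapbp, Psmb8, Psmb9, Psmb10, Nlrc5, Ciita and Cd74). By their names, 32 RT1 rows belong to class I and 11 to class II. Of the other genes, 8 serve class I and 2 serve class II. All cells were primary heart cells of Sprague-Dawley rats. Their age was postnatal day 1 by the labels and 1 to 2 days by the methods of the study. The cells were cultured with 10% fetal bovine serum and collected 48 h after transfection with an siRNA against DYRK1A (si-DYRK1A, n = 3) or with a scramble siRNA (si-NC, n = 3). The labels call the 3 libraries of each group biological replicates and do not say whether each came from its own pool of hearts. The target gene did not check these labels. Dyrk1a had 0 to 3 counts in each library of both groups, and the unannotated transcript over it had 777, 919 and 968 counts in si-NC and 971, 851 and 944 in si-DYRK1A (log2 fold change 0.08, 95% confidence interval -0.04 to 0.20), so that si-DYRK1A names a label and not a measured loss of the transcript. Each library held 10325074 to 11921772 counts, of which 0.141% to 0.161% fell on the 53 rows.

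Class I molecules are present on nearly all nucleated cells and show peptides made inside the cell to cytotoxic T cells. The peptides are cut by proteasomes, pumped into the endoplasmic reticulum by the TAP transporter and loaded onto a class I heavy chain paired with beta-2-microglobulin. Class II molecules are made mainly by professional antigen-presenting cells such as dendritic cells, macrophages and B cells, and they show peptides from engulfed material to helper T cells. In the rat, RT1-A encodes the classical class I heavy chains, and the other class I genes used here are nonclassical.

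Of the 8 genes that serve class I, 3 were higher in the libraries labelled si-DYRK1A. Among the class I rows, 1 of 11 tested was higher, which is near the 8.03% of all features tested. Psmb9, an immunoproteasome subunit, Tap1, which encodes a chain of the TAP transporter, Tapbp, which encodes the loading chaperone tapasin, and RT1-N3, a nonclassical class I gene, were called higher by edgeR at a Benjamini-Hochberg adjusted p below 0.05. No member was called lower, by edgeR or by DESeq2, and none was lower at an unadjusted p below 0.05. Of the 53 members, 21 had enough counts to be tested, 4 of them were called, and 11 were higher at an unadjusted p below 0.05. Over all 15513 features tested, 8.03% were called higher and 7.19% lower, while 14.2% were higher and 13.1% lower at an unadjusted p below 0.05. The median log2 fold change (si-DYRK1A minus si-NC, as everywhere below) of the 21 tested members was 0.30, with 17 above 0, beside 0.002 over all features. All si-DYRK1A libraries lay above all si-NC libraries for 9 of the 21 members and for 16.2% of all features, and below them for 0 members and 15.3% of all features. Rows with few counts, among them RT1-CE5 and Ciita, can pass the filter through the group where they are high. With a mean of at least 20 counts over all 6 libraries, a limit chosen after the data had been seen, si-DYRK1A lay above si-NC for 7 of 17 members and for 17.5% of 13169 features.

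Psmb9 replaces the constitutive subunit Psmb6 when immunoproteasomes are built. It had 39.2, 37.2 and 39.9 CPM (counts scaled to library size, with TMM factors) in si-NC libraries 1 to 3 and 51.7, 55.6 and 45.1 CPM in si-DYRK1A libraries 1 to 3. The lowest si-DYRK1A library therefore lay above the highest si-NC library, and the mean rose from 38.8 ± 1.39 to 50.8 ± 5.30 CPM (SD, n = 3 each). The log2 fold change was 0.39 (SE 0.08, 95% confidence interval 0.22 to 0.56, edgeR adjusted p = 0.0018).

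Tap1 encodes a chain of the TAP transporter and lies back to back with Psmb9 on chromosome 20. It had 31.5, 35.9 and 28.8 CPM in the si-NC libraries and 40.5, 45.1 and 40.2 CPM in the si-DYRK1A libraries, again without overlap. The log2 fold change was 0.39 (SE 0.09, 95% confidence interval 0.20 to 0.57, edgeR adjusted p = 0.0039). In the Rnor_6.0 positions of the table, Tap1 spans 20:3979035-3989669 on the plus strand and Psmb9 spans 20:3973420-3978845 on the minus strand, with 190 bases between their starts.

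Tapbp encodes tapasin, which holds empty class I molecules at the TAP transporter. Its values were 92.9, 98.5 and 84.3 CPM in si-NC and 103, 110 and 110 CPM in si-DYRK1A, and the groups did not overlap. The difference was smaller than for Psmb9 and Tap1, at 0.23 on the log2 scale (SE 0.06, 95% confidence interval 0.11 to 0.35, edgeR adjusted p = 0.0096). It lost its call without si-NC 3, si-DYRK1A 2 or si-DYRK1A 3 (edgeR adjusted p = 0.077, 0.064 and 0.057).

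RT1-N3 (20:3167079-3170945, plus strand) was the only RT1 row called. Its values were 9.97, 10.5 and 15.5 CPM in si-NC and 17.7, 18.5 and 15.3 CPM in si-DYRK1A. The third si-NC library lay just above the third si-DYRK1A library, so that the groups overlapped. The log2 fold change was 0.51 (SE 0.15, 95% confidence interval 0.20 to 0.83, edgeR adjusted p = 0.027). The call was lost with DESeq2 (adjusted p = 0.05031) and without si-NC 1, si-NC 2, si-DYRK1A 1 or si-DYRK1A 2 (edgeR adjusted p = 0.12, 0.098, 0.11 and 0.13). With limma on log2(FPKM + 1), Psmb9 (adjusted p = 0.046) was the only called gene of the 4, beside Tap1 (0.074), Tapbp (0.096) and RT1-N3 (0.14).

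**Figure D1:**
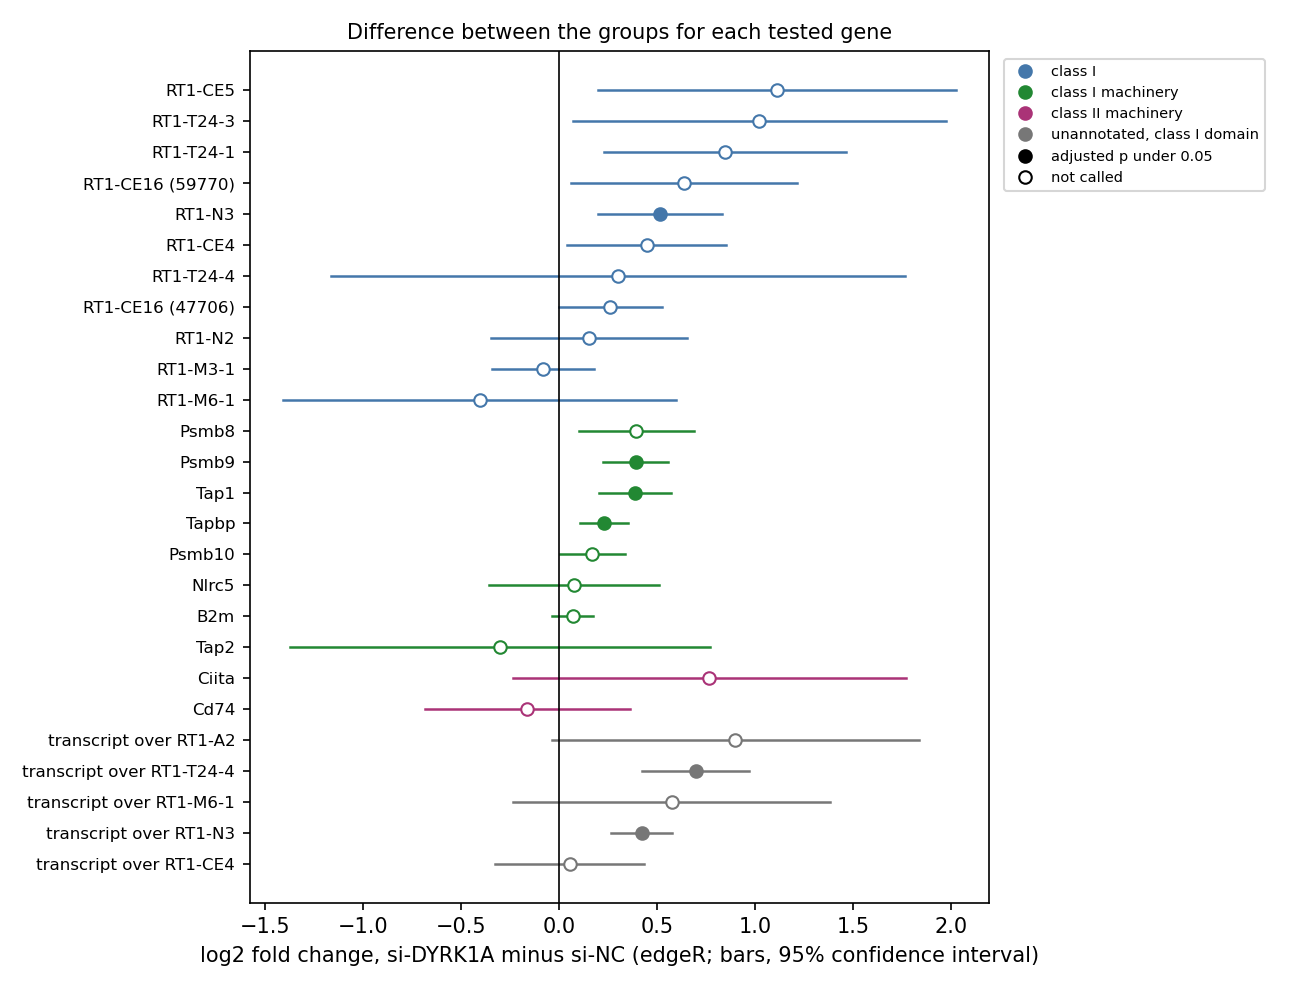
Log2 fold change of si-DYRK1A against si-NC (x axis, edgeR estimate with its 95% confidence interval) for the 21 tested members and 5 tested unannotated transcripts with a class I domain (named by an RT1 gene they cover), ordered within each group by size. Filled points passed an adjusted p of 0.05; the 2 rows named RT1-CE16 carry the last digits of their identifiers, and most class I points lie right of 0 with wide intervals.

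The promoters of the 4 called genes are given together with that of B2m, which is expressed far above them and was not called. Each sequence is the 250 bases before the RefSeq start of the gene in the GRCr8 assembly, read 5′ to 3′ on the strand of the gene. Capitals mark the core of the interferon-stimulated response element, which is GAAA, any 2 bases and GAAA again, and CCAAT, the Y box bound by NF-Y, each on either strand. They lie at chr20:4668750-4668999 (plus strand), chr20:4668544-4668793 (minus strand), chr20:4967878-4968127 (minus strand), chr20:2666239-2666488 (plus strand) and chr3:129549080-129549329 (plus strand).
Psmb9: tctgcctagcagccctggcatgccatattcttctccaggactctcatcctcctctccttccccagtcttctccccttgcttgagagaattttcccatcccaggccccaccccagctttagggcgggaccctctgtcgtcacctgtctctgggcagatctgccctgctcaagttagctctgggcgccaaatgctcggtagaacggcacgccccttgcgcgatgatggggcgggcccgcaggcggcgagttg
Tap1: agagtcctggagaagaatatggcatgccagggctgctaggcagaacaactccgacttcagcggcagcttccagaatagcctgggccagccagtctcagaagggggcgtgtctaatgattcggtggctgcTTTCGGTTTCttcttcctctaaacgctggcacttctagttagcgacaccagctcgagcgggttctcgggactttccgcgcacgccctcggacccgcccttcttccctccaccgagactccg
Tapbp: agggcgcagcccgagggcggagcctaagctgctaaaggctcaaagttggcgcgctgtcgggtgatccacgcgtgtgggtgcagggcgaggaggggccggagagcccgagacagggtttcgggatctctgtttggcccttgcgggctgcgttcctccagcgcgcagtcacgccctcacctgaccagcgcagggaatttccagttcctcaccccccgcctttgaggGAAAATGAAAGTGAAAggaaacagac
RT1-N3: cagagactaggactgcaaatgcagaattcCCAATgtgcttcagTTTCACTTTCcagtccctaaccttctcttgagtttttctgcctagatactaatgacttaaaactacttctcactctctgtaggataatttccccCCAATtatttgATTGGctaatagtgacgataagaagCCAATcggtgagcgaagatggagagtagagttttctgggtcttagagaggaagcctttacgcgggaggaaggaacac
B2m: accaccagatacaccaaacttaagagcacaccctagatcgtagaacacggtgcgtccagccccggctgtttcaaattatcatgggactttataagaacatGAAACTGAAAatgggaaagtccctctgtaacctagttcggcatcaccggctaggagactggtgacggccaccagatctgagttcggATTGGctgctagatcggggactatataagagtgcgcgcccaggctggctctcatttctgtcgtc

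Tap1, Tapbp, RT1-N3 and B2m each held the interferon-stimulated response element core in this window, and Tapbp held it in 2 overlapping copies. Psmb9 held neither motif in the bases shown. Its first 44 bases are the reverse complement of the first 44 of Tap1, since the RefSeq starts of both genes are 457 bases apart. The core found in Tap1 ends 111 bases before the Tap1 start, between both starts and outside the Psmb9 window. RT1-N3 held 4 Y boxes and B2m held 1. The 38 of 51 different member names with a RefSeq promoter were searched over 300 bases, that is 250 before and 50 after the start. The machinery promoters were those of B2m, Tap1, Tap2, Tapbp, Psmb8, Psmb9 and Psmb10 and that of Cd74, which serves class II. Nlrc5 and Ciita had no promoter to search. The response element core was found in 6 of 8 machinery promoters, 3 of 21 class I promoters and 0 of 9 class II promoters, beside 3.92% of 33469 promoters in all. Psmb9 and Cd74 were the machinery promoters without it. CCAAT was found in 4 of 8, 15 of 21 and 9 of 9, beside 37.5% of all. The gamma-activated site TTCNNNGAA was found in the promoters of Psmb8 and RT1-M3-1, and in 8.87% of all promoters. The kappa B element was found in 4 of 8 machinery promoters (Tap1, Tapbp, B2m and Cd74), in 7 of 21 class I promoters and in 1 of 9 class II promoters, beside 7.51% of all. These are matches of letters and were not tested, and motifs were found both in members that were called and in members that were not.

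**Figure D2:**
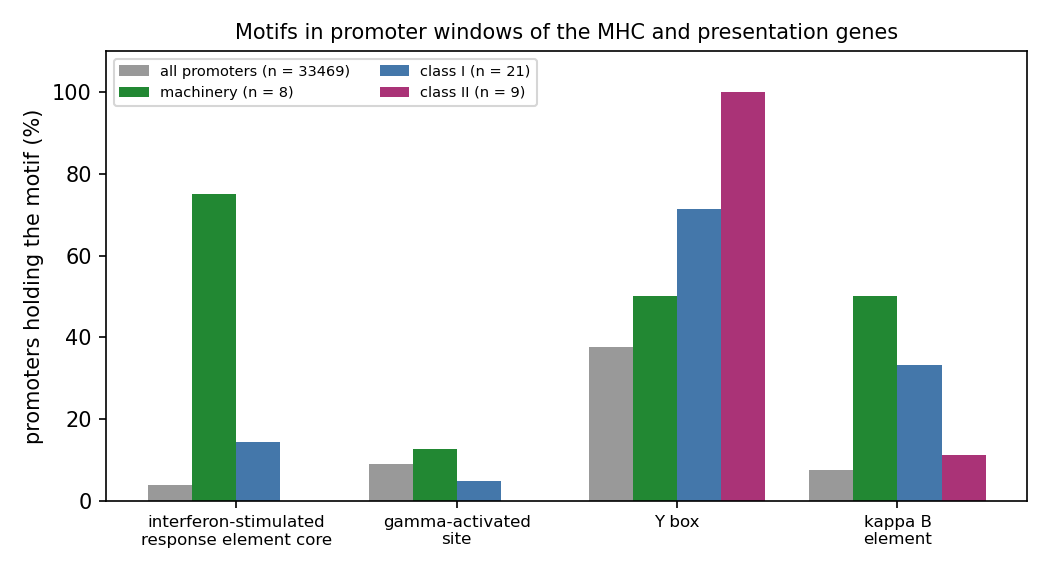
Share of promoter windows (y axis, percent) that hold each of 4 motifs, for all RefSeq promoters, 8 machinery genes, 21 class I and 9 class II genes. Cd74, which serves class II, is among the machinery genes. The interferon-stimulated response element core was found in 75% of the machinery promoters and the Y box in 100% of the class II promoters.

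The remaining class I machinery genes were not called by the same test. Psmb8, the immunoproteasome subunit next to Tap1, had 11.6, 11.4 and 9.78 CPM in si-NC and 14.3, 11.7 and 17.1 CPM in si-DYRK1A. The groups did not overlap, but the spread within si-DYRK1A was wide and the log2 fold change of 0.39 (SE 0.14) had an edgeR adjusted p of 0.065. When single libraries were left out, the estimate ranged from 0.25 without si-DYRK1A 3 (edgeR adjusted p = 0.37) to 0.52 without si-DYRK1A 2, where it passed (edgeR adjusted p = 0.030). Psmb10, the third immunoproteasome subunit, had 43.5, 42.8 and 41.0 CPM in si-NC and 42.1, 52.1 and 48.8 CPM in si-DYRK1A, with a log2 fold change of 0.17 (SE 0.08, edgeR adjusted p = 0.18). Here the estimate ranged from 0.10 without si-DYRK1A 2 (edgeR adjusted p = 0.55) to 0.25 without si-DYRK1A 1, where it passed (edgeR adjusted p = 0.046). The constitutive subunits that these proteins replace had log2 fold changes of 0.04 (Psmb5), -0.01 (Psmb6) and 0.12 (Psmb7), and none was called.

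B2m, the light chain of every class I molecule, was by far the most abundant member. Its 1208, 1087 and 1155 CPM in si-NC and 1278, 1220 and 1120 CPM in si-DYRK1A overlapped. The log2 fold change of 0.07 had a 95% confidence interval of -0.04 to 0.17 (edgeR adjusted p = 0.41), so that with this precision a rise of the size of Psmb9 or Tap1 lay outside the interval. Tap2, the partner chain of Tap1, was sparsely counted, with 45, 63 and 25 counts in si-NC and 30, 54 and 21 in si-DYRK1A. The 3 libraries of each group spread widely, and the log2 fold change of -0.30 (SE 0.46) left its direction unresolved (edgeR adjusted p = 0.74). Nlrc5, the transactivator of class I genes, had 3.45, 4.40 and 4.18 CPM in si-NC and 4.49, 4.24 and 3.98 CPM in si-DYRK1A. The groups overlapped (log2 fold change 0.07, SE 0.21, edgeR adjusted p = 0.87), and the sign turned to -0.02 without si-NC 1.

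Levels per gene length set the members far apart. In the FPKM values, which divide by gene length, the si-NC mean was 626 for B2m, higher than in 99.1% of the features tested. Tapbp (44.4 FPKM), Psmb10 (42.3) and Psmb9 (25.4) followed, and the most abundant RT1 row was RT1-CE16 with 19.8 ± 4.28 FPKM. Tapbp and Psmb10 did not differ beyond their spread. Tap1 (7.70), RT1-M3-1 (6.59), RT1-N3 (6.58), Psmb8 (5.26), Cd74 (2.31) and Tap2 (1.60) lay below. The level of Nlrc5 was 0.69 FPKM and that of Ciita 0.12 FPKM.

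**Figure D3:**
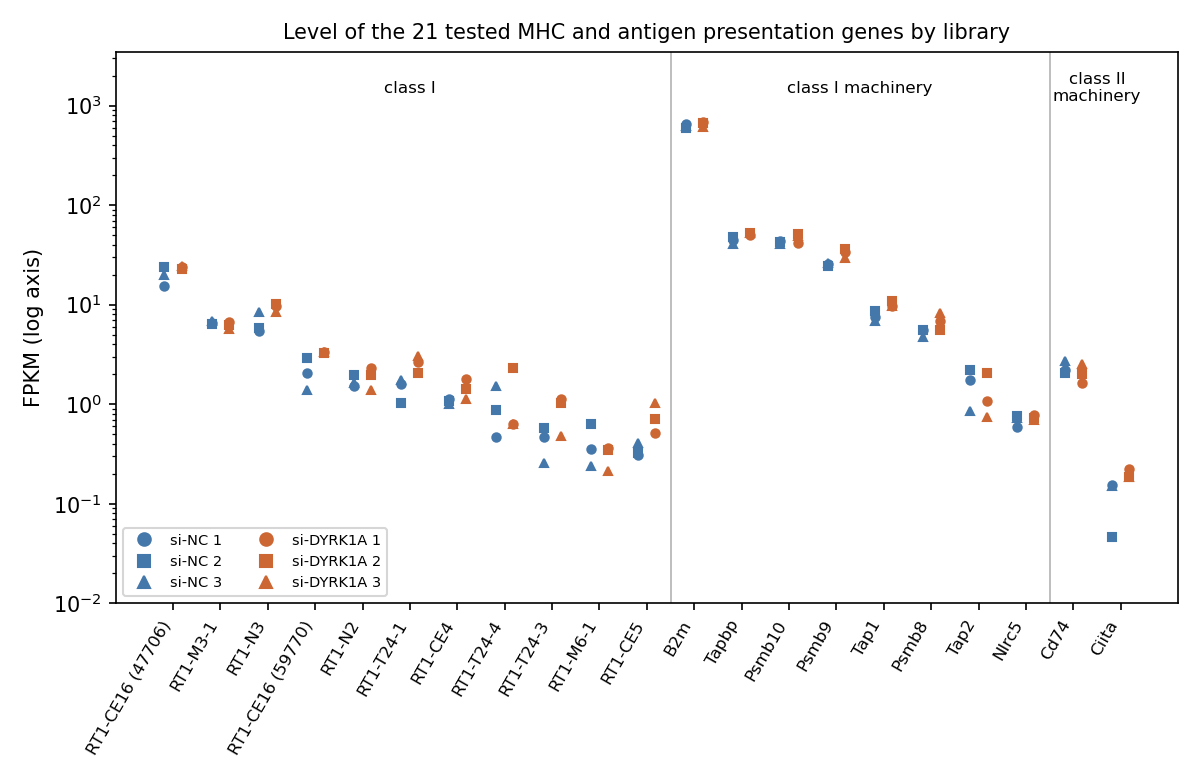
FPKM (y axis, log scale) of each tested member in each of the 6 libraries, with class I genes, class I machinery and class II machinery side by side. B2m stands at a mean of 626 FPKM in si-NC, most other machinery genes lie between 1 and 50, and the si-DYRK1A points of Psmb9 and Tap1 lie above all their si-NC points.

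Among the 32 class I rows, 8 had no count in any library, 20 stayed under 10 counts in every library and 11 were tested. The median log2 fold change of the 11 was 0.45 and 9 were above 0. In 4 of the 11 the si-DYRK1A libraries all lay above si-NC, beside 16.2% of all features. RT1-CE5 is among these rows and passed the filter on low counts through its si-DYRK1A libraries. It lies within the span of RT1-CE4, another of these rows, so that the rows can share reads. For the 8 with a mean of at least 20 counts the median was 0.37 and 7 were above 0. Of these 8, 3 had si-DYRK1A above si-NC throughout, beside 17.5% of the 13169 features with that mean. RT1-CE16, a nonclassical class I gene and the best counted RT1 row (20:3791407-3794027, minus strand), had 17.1, 26.3 and 21.6 CPM in si-NC and 26.2, 25.1 and 26.7 CPM in si-DYRK1A. The si-NC libraries were spread and reached the level of si-DYRK1A, with a log2 fold change of 0.26 (SE 0.12, edgeR adjusted p = 0.18). A further row with the same name, which overlaps the first by 2399 bases, had 22, 35 and 17 counts against 39, 35 and 39 counts (0.64, SE 0.28, edgeR adjusted p = 0.13). Both rows depended on single si-NC libraries. Without si-NC 2, their highest, both passed, at 0.42 and 0.94 (edgeR adjusted p = 0.012 and 0.048). The first row was at 0.12 without si-NC 1 (edgeR adjusted p = 0.56) and the second at 0.39 without si-NC 3 (edgeR adjusted p = 0.41).

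RT1-M3-1, another nonclassical class I gene, varied little. It had 12.4, 11.8 and 12.6 CPM in si-NC and 12.4, 11.7 and 10.6 CPM in si-DYRK1A, and its log2 fold change of -0.09 (95% confidence interval -0.35 to 0.18, edgeR adjusted p = 0.72) was among the 2 negative values of the class. The other negative value was that of RT1-M6-1, at -0.41 from 6 to 18 counts per library (SE 0.48). The most positive estimates came from rows with few counts. RT1-CE5 had 6, 7 and 9 counts in si-NC and 11, 14 and 22 in si-DYRK1A (1.11, SE 0.44, edgeR adjusted p = 0.093); it reached 10 counts only in si-DYRK1A, and through those libraries it passed the filter on low counts. RT1-T24-1 had 19, 14 and 24 counts against 35, 25 and 41, without overlap (0.84, SE 0.30, edgeR adjusted p = 0.058). Neither passed the threshold in the main test, although RT1-T24-1 did when at least 10 counts were required in every library (edgeR adjusted p = 0.041). Of the other 4 tested rows, RT1-T24-3 (1.02), RT1-CE4 (0.45), RT1-T24-4 (0.30) and RT1-N2 (0.15) had edgeR adjusted p from 0.14 to 0.82, and RT1-T24-4 spread from 8 to 41 counts.

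The classical class I genes were barely counted under their own names. RT1-A2 had 9, 8 and 7 counts in si-NC and 15, 8 and 9 in si-DYRK1A, and RT1-A1 had at most 2 counts in a library. Similar RT1 copies can share reads, and how the counting tool split such reads is not given in the sources used here. In the table, 15 of the 43 RT1 rows overlap another RT1 row, and 25 are covered to at least 50% by a transcript that the authors assembled and added without a gene name. A list of 8 unannotated transcripts whose annotation column carries a class I domain was drawn up after the values had been seen, and 5 of them were tested. Of the 8, 7 lie on chromosome 20 and 1 lies on chromosome 1 over Fcgrt, a class I-like gene, with at most 12 counts in a library. Counts of an RT1 row are therefore uncertain as a measure of that single gene.

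These unannotated transcripts held about as many counts in si-NC as the named class I rows. The transcript over RT1-N3 (20:3121711-3282294, plus strand) runs across 12 annotated genes, RT1-N2 and RT1-T24-1 among them. It had 43.2, 41.3 and 44.6 CPM in si-NC and 61.4, 59.2 and 52.2 CPM in si-DYRK1A, without overlap (log2 fold change 0.42, SE 0.07, edgeR adjusted p = 0.00041). The transcript over RT1-T24-4 and RT1-S3 (20:3173398-3221129, plus strand) had 11.1, 10.99 and 11.2 CPM against 20.6, 19.1 and 14.3 CPM (0.69, SE 0.13, edgeR adjusted p = 0.00077). All 3 of its si-NC libraries lay close together, well below the lowest si-DYRK1A library. This transcript lies within the span of the transcript over RT1-N3, on the same strand, so that both calls fall in 1 stretch of chromosome 20. A further transcript (20:5352337-5418546, plus strand) covers RT1-A1 and RT1-A2. Its 7.48, 2.88 and 2.76 CPM in si-NC and 8.36, 8.85 and 6.92 CPM in si-DYRK1A overlapped because si-NC 1 was high (0.90, SE 0.39, edgeR adjusted p = 0.20). The call depended on the method and the library. It passed with DESeq2 (adjusted p = 0.047), limma-voom (adjusted p = 0.039) and without si-NC 1 (1.51, edgeR adjusted p = 0.00019), while the estimate was 0.67 without si-NC 2 and 0.64 without si-NC 3 (edgeR adjusted p = 0.33 and 0.32). On the minus strand, the transcript over RT1-CE4 and RT1-CE5 (20:4638523-4940260) had 6.14, 6.26 and 5.02 CPM against 6.68, 5.27 and 6.06 CPM (0.05, edgeR adjusted p = 0.90).

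Class II was close to the counting limit. None of the 11 class II rows could be tested, 3 had no count at all (RT1-Ha, RT1-DMa and a second RT1-DMb row), and a count of 0 allows up to 3 counts, or 0.251 to 0.288 CPM in a library. RT1-Da, an alpha chain gene, had 6, 6 and 10 counts in si-NC and 8, 9 and 8 in si-DYRK1A. RT1-Db1, a beta chain gene, had 12, 7 and 10 against 5, 1 and 6 counts, and RT1-Bb had 6, 6 and 5 against 2, 3 and 10. The groups overlapped for RT1-Da and RT1-Bb, and for RT1-Db1 all si-DYRK1A libraries lay below si-NC at counts too low for a test. RT1-DMb, which encodes a chain of the peptide editor DM, had 31 counts in si-NC 1 and at most 3 in every other library. RT1-Ba, RT1-DOa, RT1-DOb and RT1-Db2 had at most 3 counts in any library. LOC108348072, described in the table as a class II M alpha chain and no member by its name, had 8, 39 and 2 counts in si-NC and 3, 3 and 67 in si-DYRK1A; it was looked at after its values had been seen, and single libraries of both groups held most of its counts. No difference of class II rows could be tested at these counts. Genes that heart cells express strongly, such as Myh6, Myh7 and Tnni3, are also listed at 0, and whether the low class II counts come from how reads were assigned was not tested.

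The class II partners were measured slightly better. Cd74, the invariant chain that guards the class II groove, had 3.07, 2.88 and 3.76 CPM in si-NC and 2.29, 2.83 and 3.55 CPM in si-DYRK1A. The groups overlapped, with a log2 fold change of -0.16 (95% confidence interval -0.69 to 0.36, edgeR adjusted p = 0.73). Ciita, the transactivator of class II genes, had 9, 3 and 10 counts in si-NC and 14, 11 and 12 in si-DYRK1A, and it passed the filter on low counts through the si-DYRK1A libraries. The groups did not overlap, but si-NC 2 was low and the log2 fold change of 0.76 (SE 0.48) did not pass (edgeR adjusted p = 0.32).

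Summed per gene length, class I exceeded class II in every library, with 37.4 to 56.1 FPKM for class I and 0.67 to 2.49 FPKM for class II. In CPM, which were used to compare the groups, the 32 class I rows summed to 57.0, 69.0 and 68.0 CPM in si-NC and 84.2, 83.2 and 74.8 CPM in si-DYRK1A. The si-DYRK1A libraries were all higher, with means of 64.7 ± 6.68 and 80.7 ± 5.16 CPM (SD, n = 3 each), a log2 difference of 0.32 beside a replicate SD of 0.13 on the same scale. The 11 class II rows summed to 5.37, 2.03 and 2.42 CPM in si-NC and 1.67, 1.70 and 2.77 CPM in si-DYRK1A. These groups overlapped, and their log2 difference of -0.68 was of the size of the replicate SD of 0.60. It was -0.22 without RT1-DMb and -0.12 without si-NC 1. The class II sum was 5.31% ± 3.58 of the class I sum in si-NC and 2.58% ± 0.98 in si-DYRK1A, with overlapping libraries. The log2 difference of this ratio was -1.04, but -0.53 without RT1-DMb and -0.34 without si-NC 1. The 7 class I domain transcripts on chromosome 20 summed to 69.9, 62.7 and 64.2 CPM in si-NC and 98.3, 95.01 and 81.6 CPM in si-DYRK1A, which was higher in all 3 (log2 difference 0.48, replicate SD 0.12). Most of this sum came from the transcript over RT1-N3, with means of 43.0 and 57.6 CPM, and the transcript nested in it, with 11.1 and 18.0 CPM.

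**Figure D4:**
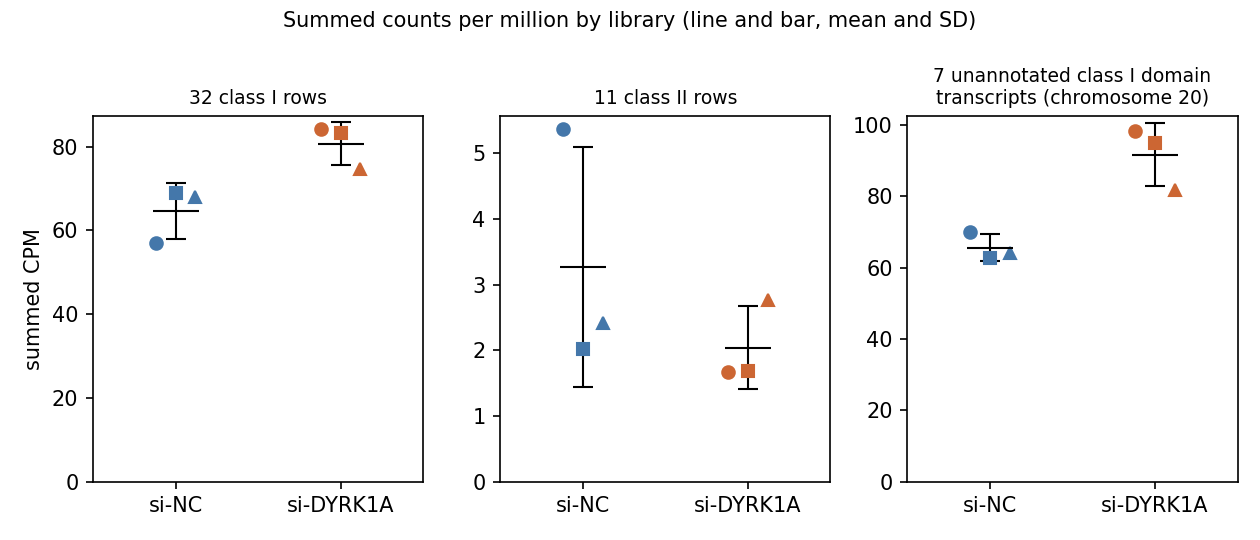
Summed CPM (y axes, each from 0) of the 32 class I rows, the 11 class II rows and the 7 unannotated transcripts on chromosome 20 with a class I domain, per library, with circles, squares and triangles for libraries 1, 2 and 3 and lines and bars for the mean and SD. The si-DYRK1A libraries lie above si-NC for both class I sums and overlap with si-NC for class II, where si-NC 1 stands apart at 5.37 CPM.

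Of the other genes of the pathway, 52 symbols were listed, 50 were found and 31 were tested. Beside 8.03% higher and 7.19% lower over all features tested, 2 of the 31 were called higher and 6 lower. The higher ones were Stat2, a transcription factor of the interferon response, from 12.8 ± 0.45 to 17.6 ± 1.83 CPM (log2 fold change 0.46, edgeR adjusted p = 0.0073), and Cd80, a co-stimulatory ligand for T cells, from 8.71 ± 1.39 to 13.0 ± 0.92 CPM (0.58, edgeR adjusted p = 0.0074). Irf1 (0.16), a transcription factor that drives class I genes in the interferon response, was not called, and Irf8, Irf9, Jak1 and Nfkb1 had no counts under their names. Among 6 tested genes of class I loading and peptide supply, Tapbpl, which encodes the tapasin relative TAPBPR, fell from 38.1 ± 3.78 to 28.5 ± 1.10 CPM (edgeR adjusted p = 0.0019), opposite in direction to Tapbp. Canx (0.07), Pdia3 (-0.01) and Erap1 (0.01) were not called. Among class I-like genes, Cd1d1, which presents lipids, fell from 37.2 ± 4.80 to 21.6 ± 2.85 CPM (edgeR adjusted p = 6.1e-05). Cd86, a co-stimulatory ligand like Cd80, fell by 1.00 on the log2 scale (edgeR adjusted p = 0.036), Icam1, an adhesion molecule for T cells, fell by 0.50 (edgeR adjusted p = 6.7e-07), Ifngr2, a chain of the interferon gamma receptor, fell by 0.20 (edgeR adjusted p = 0.018), and Lgmn, a lysosomal protease, fell by 0.12 (edgeR adjusted p = 0.048).

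Other genes of the region were read beside the members. In the span of the RT1 rows (20:154074-5421098), 99 other features were tested, 8 of them were called higher and 5 lower, and their median log2 fold change was 0.04. These are shares of 8.08% and 5.05%, and their difference from the members was not tested.

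Markers of other cells in the cultures were read beside these values. In bulk RNA, fewer cells of a type and less RNA per cell cannot be told apart. Shares over all features tested were 8.03% called higher and 7.19% called lower. Macrophage markers summed to 251 to 277 CPM in si-NC and 245 to 273 CPM in si-DYRK1A, with 1 of 10 tested called (Cd163, higher, 0.87) and Cd68 at 0. Dendritic cell markers summed to 52.2 to 56.8 and 41.7 to 45.6 CPM, with both tested genes, Itgax (-0.30) and Zbtb46 (-0.46), called lower. Most of this sum was Itgax, at means of 44.6 and 36.2 CPM. The other dendritic markers, Flt3, Clec9a, Cd209a and Xcr1, had at most 12 counts in a library and were not tested. Their means were all higher in si-DYRK1A. Endothelial markers, of cells that also carry class I, summed to 133 to 148 and 106 to 116 CPM, with 2 of 5 called lower. Cardiomyocyte markers summed to 11640 to 11810 and 12820 to 13240 CPM, with 3 of 4 tested called higher and Myh6, Myh7 and Tnni3 at 0 under their names. Most of the cardiomyocyte sum was Actc1, at means of 9976 and 10880 CPM. The tested marker that was not called, Tnnt2, was at -0.14. Fibroblast markers summed to 21430 to 26160 and 20260 to 21000 CPM, with 1 of 4 tested called higher (Lum, 0.59) and Pdgfra at 0. Col1a1, the largest part of this sum, had means of 14340 and 11110 CPM and was not called (edgeR adjusted p = 0.087). Col3a1 (0.02) and Dcn (0.25) were not called either. Smooth muscle markers summed to 556 to 563 and 545 to 569 CPM, with 0 of 2 tested called and Acta2 and Myh11 at 0. B cell markers stayed at or below 0.68 CPM and T and NK cell markers at or below 0.75 CPM in every library. The part of these cells in the class I and class II values was not tested.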

How the data were processed

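The authors sequenced polyA RNA from 6 libraries and, per the methods of the study, mapped paired reads to Rnor_6.0 with HISAT2. The submitters' processing notes instead name Bowtie 0.12.2 and the mouse build mm8, which does not match the rat positions in the table. The sources used here do not give how reads were counted, on which annotation and with what strand setting. The authors deposited raw counts per gene, which were used for all tests, and FPKM values, which were used for levels and as an alternative. The labels give a TruSeq kit and the methods a NEBNext kit.

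Groups came from the sample labels. In R 4.3.3, edgeR 4.0.16 was run on the counts by its quasi-likelihood method with TMM factors and a robust fit. Before this, filterByExpr dropped rows with low counts. A row was kept if 3 or more libraries reached the CPM of 10 counts at the median library size, with a minimum total of 15. All 43035 rows entered the filter, and p-values were adjusted over the 15513 rows kept. No threshold on fold change was set. CPM were scaled by TMM. Sums over members carry no test. On simulated data, in which known genes were changed, the test was checked before use. The changes set there were larger than those of the called members, and differences of their size were not simulated. Unannotated transcripts over a member were found with GenomicRanges 1.54.1. Promoters came from RefSeq (GRCr8). Alternatives were DESeq2 1.42.0, limma-voom and limma 3.58.1 on log2(FPKM + 1) and log2(FPKM + 0.1), other normalizations and filters, a stricter threshold of 0.01, the replicate number as a block and leaving out each library. Values in every library are given for called members, the 5 tested members with the most counts per length and the 10 members outside the RT1- names; some further rows were chosen after their values were seen. A gene of the pathway lists is not reported here. The members and lists were chosen with earlier results of these data known. Depth was 10325074 to 11921772 counts per library, so that 3 counts correspond to 0.251 to 0.288 CPM; this floor covers counting error only.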

Additional observations from a re-analysis of the deposited data

How the results depend on the processing

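The count of 4 members called higher stayed between 3 and 5 under DESeq2, limma-voom, the other normalizations and filters of counts, and when each library was left out. It fell to 1 with limma on log2(FPKM + 1) and on log2(FPKM + 0.1), and to 0 with the former without a filter on low values. With those 3 fits, 1, 1 and 0 of the class I machinery genes (3 in the main test, 2 to 4 when a library was left out) and 0, 0 and 0 of the class I domain transcripts (2 in the main test, 2 or 3 under the other alternatives) were called; over all features, the fit on log2(FPKM + 1) called 662 higher and 537 lower, against 1245 and 1115. The 1 class I call, RT1-N3, became 0 with DESeq2, with the 3 FPKM fits and at an adjusted p below 0.01, became 2 with at least 10 counts in every library, and ranged from 0 to 2 when a library was left out. Without a filter on low counts, 1 class II row, and so 1 member, was called lower, RT1-DMb with its 31 counts in 1 si-NC library. The cause of these shifts was not tested.

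Leaving out a library turned the sign of 5 estimates that were not called. RT1-N2 ranged from -0.025 to 0.34, RT1-T24-4 from -0.60 to 0.80 (-0.012 without si-NC 1), RT1-M6-1 from -0.69 to 0.054, Nlrc5 from -0.020 to 0.14 and the transcript over RT1-CE4 and RT1-CE5 from -0.052 to 0.14 (-0.031 without si-DYRK1A 1).

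The shared replicate numbers showed no pairing in the values: deviations of same-numbered libraries from their group means correlated at 0.06, -0.03 and -0.004. Libraries of different numbers correlated at -0.06 to 0.06. With 3 libraries per group, these values cannot settle whether same-numbered libraries shared a preparation. With the replicate number as a block, 4 members were called higher and 0 lower, and the transcript over RT1-A1 and RT1-A2 passed (0.98, edgeR adjusted p = 0.019), so that 3 class I domain transcripts were called.

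Low counts limit what the data show: 27 of the 53 members stayed under 10 counts in every library, and no class II row was tested.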
